A study of Mus musculus with 3 samples.

Results

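The 10 genes described here build and load the mouse major histocompatibility complex (MHC) class I molecule. They were taken by symbol from a table of 31053 genes: the heavy chains H2-K1, H2-D1, H2-Q4, H2-Q7, H2-T22 and H2-T23, the light chain B2m, and the peptide-loading genes Tap1, Tap2 and Tapbp. Their counts of unique molecular identifiers (UMIs, each standing for 1 captured mRNA molecule) were followed over the 13 cell clusters that the authors deposited and over brains with and without metastases. The metastasis brains came from female C57BL/6 mice, 2 to 3 months old, about 2 weeks after E0771 cells, a mouse mammary carcinoma line, had been put into the carotid artery. The naive brains came from female C57BL/6 mice of that age with no metastases. Papain-dissociated brains were enriched for mononuclear cells on a Percoll gradient, stained with 6 surface antibodies, marked each with a hashing antibody and pooled into a single droplet run that read the 3′ ends of transcripts. The deposited hashing calls gave 2 metastasis and 2 naive brains. The design text speaks of 6 samples and the sample label of 1 brain hemisphere. Nothing but the hashing antibodies marks the brains as separate animals, so each p-value measures the spread between these 4 suspensions.

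Class I molecules carry short peptides from inside the cell to its surface, where CD8 T cells read them. A heavy chain pairs with beta-2 microglobulin in the endoplasmic reticulum. The TAP transporter pumps peptides in, and tapasin bridges the empty class I molecule to the transporter until a fitting peptide binds. H2-K1 and H2-D1 encode the classical, polymorphic heavy chains. H2-Q4, H2-Q7, H2-T22 and H2-T23 encode nonclassical ones: H2-Q7 gives a Qa-2 antigen, H2-T23 gives Qa-1, which inhibitory receptors of NK cells read, and H2-T22 is a ligand of some gamma delta T cells. Interferon raises most of these genes in many cell types, and cells of the healthy brain are known for low class I.

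All members but B2m lie in the MHC on chromosome 17 (RefSeq positions, build GRCm38.p6). From the centromere outward they are Tapbp (chr17:33919478-33929290), H2-K1 (chr17:33996012-34000619), Tap1 (chr17:34187556-34197225), Tap2 (chr17:34204479-34216321), H2-D1 (chr17:35263094-35267497), H2-Q4 (chr17:35379617-35384674), H2-Q7 (chr17:35439140-35443773), H2-T23 (chr17:36029977-36032701) and H2-T22 (chr17:36037128-36042742). B2m lies at chr2:122147687-122153082. The heavy chains are near-copies of each other, so reads that fit more than 1 of them could have been split or dropped in counting, and levels were compared between clusters or conditions and not between genes.

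Promoter sequences (RefSeq, GRCm38.p6, 250 bases before to 50 after each start) were matched for 9 of the 10 members. They were searched on both strands for the cores of an interferon-stimulated response element (GAAANNGAA, in 8.56% of 32851 promoters), a kappa B site (GGGANTNCC, in 3.95%), a GAS element (TTCNNNGAA, in 8.30%) and a CRE (TGACGNCA, in 3.21%). Each window holds 100 bases, 5′ to 3′ on the strand of the gene. The windows are shown because the heavy chains fall into 2 kinds by these exact letters, which is not a split by the elements they carry. The promoters of H2-K1, H2-D1, H2-Q4 and H2-Q7 hold a kappa B core, followed after a few bases by an identical run of 15 bases, both in capitals.
H2-K1: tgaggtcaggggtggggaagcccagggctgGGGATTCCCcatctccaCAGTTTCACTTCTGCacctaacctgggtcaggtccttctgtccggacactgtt
H2-D1: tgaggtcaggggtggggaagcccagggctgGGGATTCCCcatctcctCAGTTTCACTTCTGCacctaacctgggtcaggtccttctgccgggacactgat
H2-Q4: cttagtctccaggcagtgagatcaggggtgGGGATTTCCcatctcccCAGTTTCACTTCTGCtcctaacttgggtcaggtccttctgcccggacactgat
H2-Q7: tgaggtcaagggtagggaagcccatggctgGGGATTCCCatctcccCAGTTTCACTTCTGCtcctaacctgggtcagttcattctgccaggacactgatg
Those windows are chr17:34000388-34000487 on the minus strand for H2-K1, and on the plus strand chr17:35262894-35262993 for H2-D1, chr17:35379414-35379513 for H2-Q4 and chr17:35438993-35439092 for H2-Q7. The run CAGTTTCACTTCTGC was picked out after these sequences had been seen; it stands in 7 of the 32851 promoters, those of H2-K1, H2-D1, H2-Q4, H2-Q6, H2-Q7 and H2-Q10. The promoters of H2-T22, H2-T23 and B2m hold no kappa B core by these letters and hold the interferon-stimulated core, in capitals, read on the opposite strand for the first pair.
H2-T22: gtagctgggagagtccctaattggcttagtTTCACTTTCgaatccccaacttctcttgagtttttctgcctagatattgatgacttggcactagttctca
H2-T23: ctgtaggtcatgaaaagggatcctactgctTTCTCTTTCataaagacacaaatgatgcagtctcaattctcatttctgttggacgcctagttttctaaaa
B2m: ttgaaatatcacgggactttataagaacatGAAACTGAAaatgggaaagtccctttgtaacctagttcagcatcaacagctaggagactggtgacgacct
These are chr17:36042863-36042962 on the minus strand, chr17:36032755-36032854 on the minus strand and chr2:122147518-122147617 on the plus strand. A CRE core was found in Tap1 (86 bases before the start) and H2-Q4 (28 bases after it), the GAS core in no member, and none of the 4 in Tapbp. These are matches of letters and not sites shown to be bound. The cores are strict, so a looser form of an interferon-stimulated element, also within the shared run of 15 bases, would have been missed. A promoter without the core was therefore not shown to lack such an element.

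The deposited table held 12421 cells under as many distinct barcodes, each assigned to a single brain. Metastasis brains 1 and 2 gave 5360 and 6174 cells with a median of 7294 and 7707.5 UMIs, and naive brains 1 and 2 gave 572 and 315 cells with a median of 1393.5 and 1230. Levels are given as CPM, the UMIs of a gene in each 1000000 UMIs of that cluster and brain, without division by transcript length, because each UMI is 1 molecule whatever its length. Markers stood high (at least 50 CPM and about 2 times the level in all other cells) for endothelium in cluster 6 (8 of 8), for choroid plexus epithelium, which secretes cerebrospinal fluid, in clusters 7 and 9 (8 of 9 each) and for mural cells, the contractile cells of vessel walls, in cluster 11 (4 of 8). These are called endothelial-like, choroid plexus-like and mural-like. Cluster 2 held 10 of 11 monocyte and 6 of 8 macrophage markers and is called myeloid, cluster 8 was led by MHC class II, NK and T cell genes, cluster 12 mixed microglia and neutrophil genes, and cluster 5 was led by mitochondrial transcripts. Clusters 0, 1, 3 and 4, provisionally called tumour-like, had none of 10 carcinoma markers high by that rule. Krt8, which encodes a simple-epithelium keratin, was the only 1 above a few CPM (386 to 751 in the metastasis brains), so these clusters go by number. They held 7860 cells, of which 88 carried a naive hashing label (69 from naive brain 1 and 19 from naive brain 2).

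Levels over clusters are a description, since the clusters were built from the same cells. In the metastasis brains H2-K1 was highest in myeloid cluster 2, at 962 and 1179 CPM, then in cluster 8 at 480 and 639 CPM, and lowest by the mean of both brains in cluster 4, at 91.0 and 109 CPM, although cluster 9 of metastasis brain 1 was lower still at 86.6 CPM. H2-D1, its classical partner, reached 3038 and 3527 CPM in cluster 2 and was lowest in choroid plexus-like cluster 9, at 240 and 650 CPM. B2m, the shared light chain, followed the same range, with 5034 and 5644 CPM in cluster 2 and 592 and 1288 CPM in cluster 9. Cluster 2 stood above the next cluster beyond the spread between brains for all 3 of these genes, whereas many neighbours in the middle of the order overlapped.

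Of the nonclassical chains, H2-Q7 and H2-Q4 were the most restricted. H2-Q7 had 141 and 172 CPM in cluster 2, 129 and 169 CPM in cluster 8 and 49.9 and 82.5 CPM in endothelial-like cluster 6, and averaged under 1.1 CPM in each of clusters 0, 1, 3 and 4. H2-Q4 had 45.4 and 63.6 CPM in cluster 6 and 51.1 and 56.5 CPM in cluster 2, which overlapped, and averaged under 1 CPM in clusters 0, 1, 3 and 4. H2-T23 had 308 and 351 CPM in cluster 2 and was lowest in cluster 3, at 22.8 and 11.3 CPM. H2-T22 had the narrowest range among the heavy chains, with means between 182 CPM in cluster 2 and 36.0 CPM in cluster 9.

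The loading genes were ordered otherwise. Tap1, a transporter subunit, had 130 CPM in both brains in cluster 2 and overlapped there with cluster 8 (94.1 and 148 CPM). Tap2, the partner subunit, was highest in cluster 5 at 119 and 136 CPM. Tapbp, which encodes tapasin, was also highest in cluster 5, at 236 and 268 CPM. By the mean of both brains all 3 were lowest in cluster 9, at 6.54 and 12.7 CPM for Tap1, 16.3 and 29.7 CPM for Tap2 and 55.6 and 82.6 CPM for Tapbp, which in metastasis brain 2 was lower in cluster 11 (65.2 CPM). Cluster 12 had fewer than 20 cells in metastasis brain 2 and is left out of this order; its 26 and 15 metastasis cells against 60 and 33 naive cells gave 928 and 795 CPM against 797 and 595 CPM for H2-K1 and 4324 and 4830 CPM against 3263 and 2514 CPM for B2m.

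**Figure D1:**
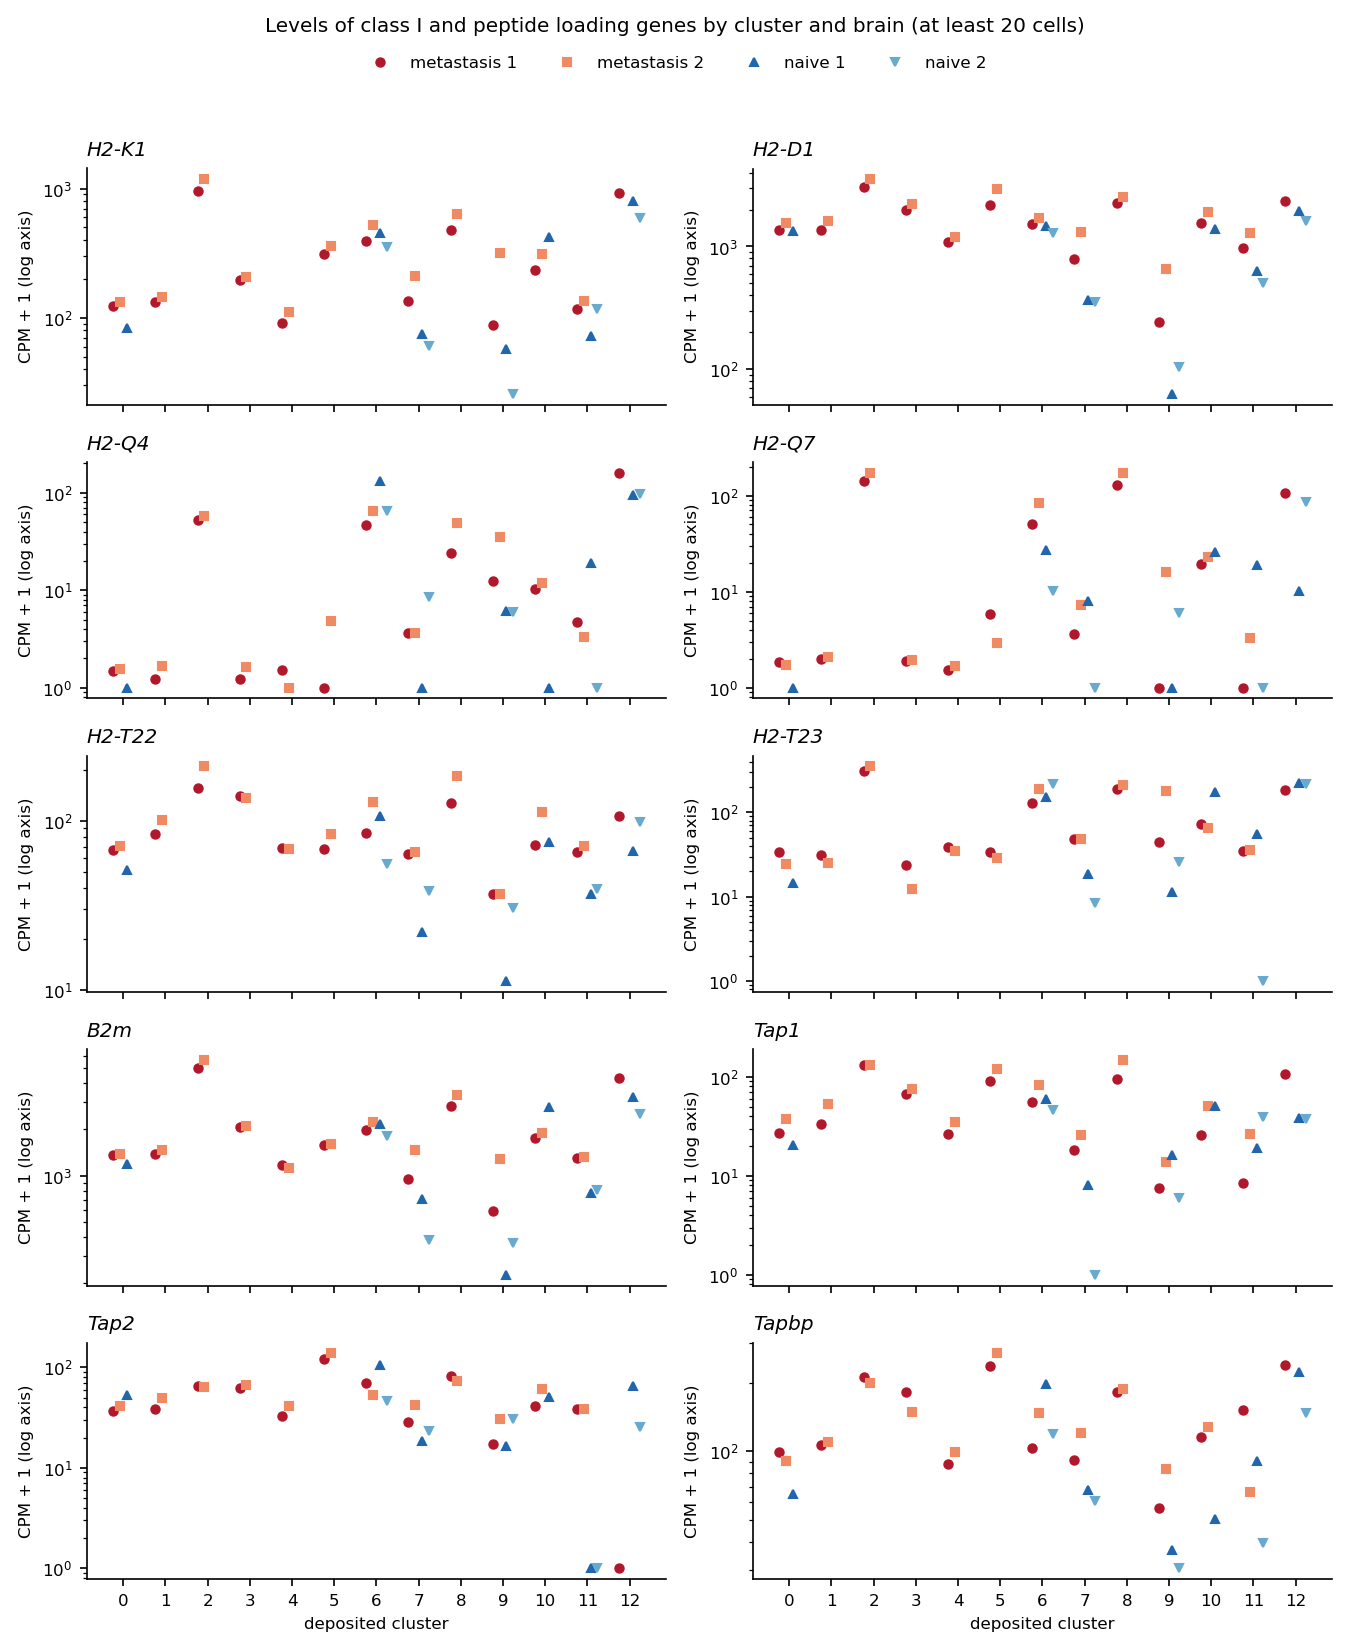
CPM plus 1 (log axis) of the 10 genes in each deposited cluster (horizontal axis), with a point for each brain that had at least 20 cells there. Metastasis brains are red and orange and naive brains dark and light blue. H2-Q4 and H2-Q7 lie near the bottom of the axis in clusters 0, 1, 3 and 4 and above 45 CPM in clusters 2 and 6 of the metastasis brains.

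Because clusters 0, 1, 3 and 4 gave 88.6% and 88.1% of all UMIs of metastasis brains 1 and 2, they also held most class I transcripts: 85.5% and 84.0% of H2-D1 UMIs, 81.3% and 79.0% of B2m UMIs and 68.7% and 64.4% of H2-K1 UMIs. They held 10.2% and 7.43% of H2-Q7 UMIs and 11.2% and 12.2% of H2-Q4 UMIs. Cluster 2 gave 3.34% and 3.99% of all UMIs but 62.5% and 68.2% of H2-Q7 UMIs and 54.5% and 54.6% of H2-Q4 UMIs.

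The balance between the 2 classical chains differed between clusters. In clusters 0, 1, 3 and 4 together, H2-K1 made up 8.47% (exact 95% binomial interval 8.25 to 8.69) and 8.10% (7.93 to 8.28) of the UMIs of H2-K1 and H2-D1 in the metastasis brains. The naive-labelled cells of those clusters gave 6.58% and 5.79%. In cluster 2 the share was 24.1% and 25.0% in the metastasis brains. Endothelial-like cluster 6 gave 20.5% and 23.5% in metastasis brains against 23.6% and 21.5% in naive brains, so the 2 conditions overlapped there. Choroid plexus-like cluster 7 gave 14.6% and 13.8% against 16.7% and 14.5%. Mural-like cluster 11 gave 10.7% and 9.56% against 10.3% and 18.8%. Cluster 9 gave 26.5% and 32.7% in metastasis brains, against 47.8% (26.8 to 69.4) and 19.2% (6.55 to 39.4) in naive brains, where few UMIs left wide intervals. These intervals, like those given further on, cover counting error only.

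**Figure D2:**
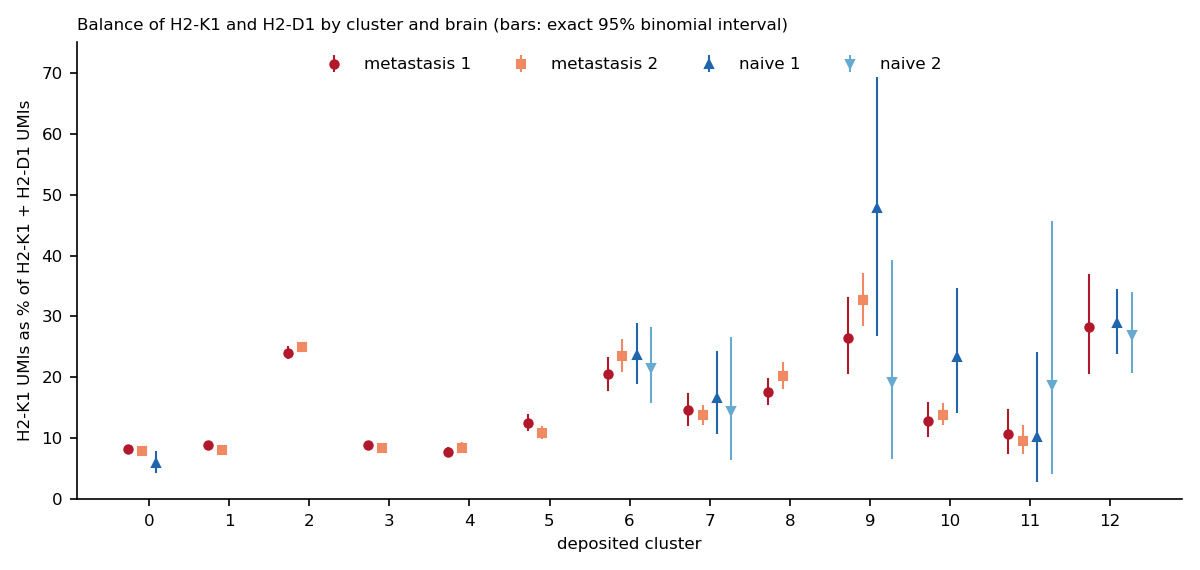
UMIs of H2-K1 as a percentage of UMIs of H2-K1 and H2-D1 together, by deposited cluster (horizontal axis) and brain, with exact 95% binomial intervals as bars. Clusters 0, 1, 3 and 4 lie near 8% in the metastasis brains and clusters 2 and 6 above 20%.

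Of clusters 0, 1, 3 and 4, cluster 3 had the most class I RNA. A gene was counted as higher or lower when both metastasis brains' values in 1 cluster lay beyond both values in the other. Of the 8 members with a mean of at least 20 CPM, 7 were higher by this count in cluster 3 than in cluster 0 and H2-T23 was lower. All genes at that level gave a background of 16.1% higher and 16.9% lower. The same 7 were higher and H2-T23 lower against cluster 1 (backgrounds 20.7% and 17.3%) and against cluster 4 (27.6% and 23.8%). The median log2 ratio of the 8 members was 0.70, 0.56 and 0.88 over clusters 0, 1 and 4, beside -0.01, 0.02 and 0.02 over all 4986 genes compared. Cluster 3 was led by Usp18, Isg15, Ifit1 and Zbp1, which interferon induces, so a cluster against its neighbours is a description here and has no test.

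H2-K1 had 195 and 205 CPM in cluster 3, against 123 and 131 CPM in cluster 0, a mean ratio of 1.57. H2-D1 had 1990 and 2237 CPM in cluster 3, against 1367 and 1543 CPM in cluster 0, a ratio of 1.45. B2m had 2075 and 2110 CPM in cluster 3, against 1359 and 1388 CPM in cluster 0, a ratio of 1.52. The classical chains and their light chain thus differed by similar factors, and for each of them both cluster 3 values lay above both cluster 0 values. H2-T22, the gamma delta T cell ligand, had 139 and 136 CPM in cluster 3, against 66.5 and 70.1 CPM in cluster 0. Tap1 had 65.4 and 73.8 CPM against 25.8 and 36.7 CPM, the largest of the 8 ratios at 2.26. Tap2 had 60.6 and 66.2 CPM in cluster 3, against 35.6 and 40.3 CPM in cluster 0. The loading genes and H2-T22 therefore lay further apart between the clusters than the classical chains did. Tapbp had 181 and 149 CPM in cluster 3 and 98.6 and 90.1 CPM in cluster 0. H2-T23, the Qa-1 gene, went the other way by summed counts, with 22.8 and 11.3 CPM in cluster 3, against 32.9 and 23.3 CPM in cluster 0, a ratio of 0.581. With CPM averaged over single cells, 0 members were lower in cluster 3 than in cluster 0 or cluster 1. In cells thinned to 5000 UMIs, H2-T23 averaged 0.151 and 0.061 UMIs in cluster 3, against 0.154 and 0.112 UMIs in cluster 0. Its difference was thus hardly seen in metastasis brain 1.

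Among clusters 0, 1 and 4, cluster 4 had the least of the classical chains. H2-D1 had 1372 and 1615 CPM in cluster 1 and 1367 and 1543 CPM in cluster 0, against 1077 and 1189 CPM in cluster 4. In cluster 1 over cluster 4, 5 of the 8 members were higher by the same count (H2-K1, H2-D1, H2-T22, B2m and Tapbp; background 18.5%) and H2-T23 was lower (17.7%). In cluster 0 over cluster 4, 3 were higher (H2-K1, H2-D1 and B2m; 25.0%) and H2-T23 was lower (19.1%). In cluster 1 over cluster 0, 3 were higher (H2-K1, H2-T22 and Tapbp; 13.4%), and none was lower. Tap1 and Tap2 overlapped across brains in these 3 comparisons, although each was higher within either brain: Tap1 had 32.4 and 51.6 CPM in cluster 1, 25.8 and 36.7 CPM in cluster 0 and 25.7 and 33.8 CPM in cluster 4. Among the 4 clusters H2-T23 stood highest in cluster 4, at 38.3 and 33.8 CPM. By these summed levels its order was the reverse of that of H2-D1 at both ends. The low end, cluster 3 under clusters 0 and 1, was lost with CPM averaged over single cells.

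**Figure D3:**
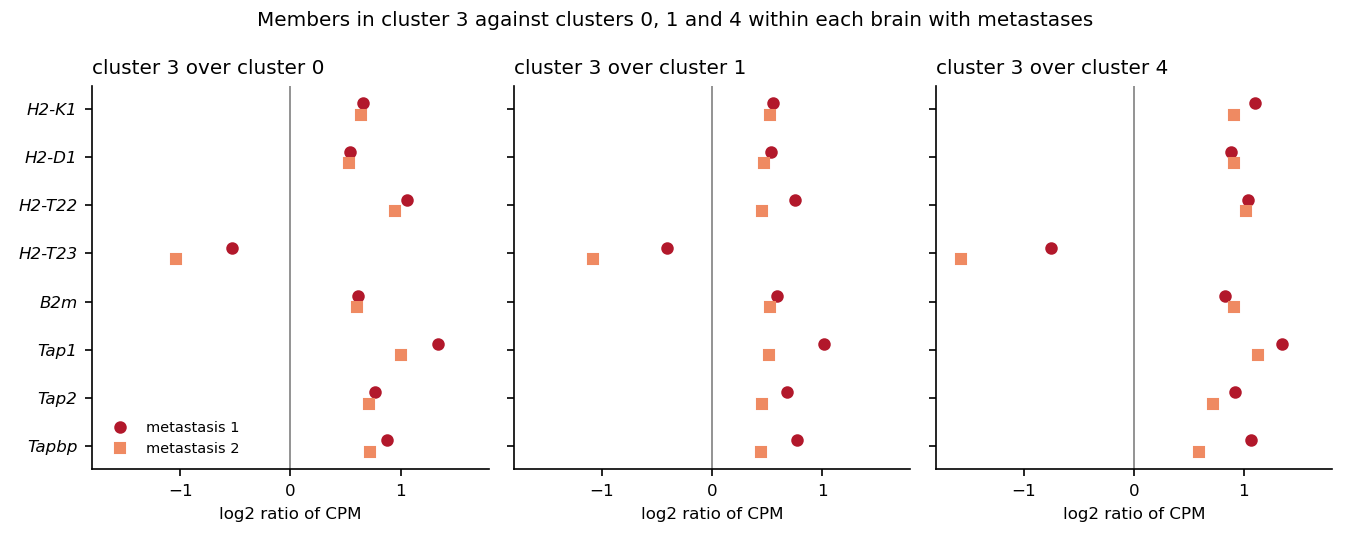
Log2 ratio of CPM in cluster 3 over clusters 0, 1 and 4 (panels) for the 8 members with a mean of at least 20 CPM, with 1 point for each metastasis brain and a line at 0. In each panel 7 members lie right of the line in both brains and H2-T23 lies left of it.

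Depth did not separate clusters 3 and 0, whose cells had medians of 13807.5 and 13972.5 UMIs in cluster 3 and 13259.5 and 15283 UMIs in cluster 0. Clusters 1 and 4 were shallower (medians of 5585 to 6165.5 UMIs). After each cell was thinned to 1000 UMIs, H2-D1 was seen in 86.0% and 85.0% of cluster 3 cells, against 69.3% and 76.0% of cluster 0 cells. B2m was seen in 84.2% and 84.5% of cluster 3 cells, against 71.2% and 71.1% of cluster 0 cells. Unthinned, nearly every cell of both clusters held both genes (H2-D1 in 99.88% and 99.94%, B2m in 99.84% and 99.97%, as means over brains). Every nucleated cell type can make class I, so no cell type here marks the level that free RNA alone would give. The monocyte markers summed to 262 and 609 CPM in cluster 3 and 240 and 407 CPM in cluster 0, with no marker of the 11 at 0, and the macrophage markers to 63.2 and 54.6 CPM against 58.9 and 51.5 CPM; their part in the result was not tested. Within clusters the spread was wide. At 5000 UMIs per cell, the lowest and highest deciles of H2-D1 were 4 and 16 UMIs in cluster 3 of metastasis brain 1 and 5 and 18 in that of metastasis brain 2, against 3 and 11, and 3 and 13, in cluster 0.

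The proteasome genes that cut peptides for class I followed cluster 3 as well. All 5 genes of the immunoproteasome and its activator were higher in cluster 3 than in each of clusters 0, 1 and 4 in both brains. Psmb8, a catalytic subunit that interferon induces, had 331 and 367 CPM in cluster 3, against 156 and 190 CPM in cluster 0. Psme2, a subunit of the activator cap, had 417 and 396 CPM, against 263 and 269 CPM. Of the 3 constitutive catalytic subunits, 2, 3 and 3 were higher over clusters 0, 1 and 4. Of 6 other loading and trimming genes at that level, 2, 2 and 3 were higher and Canx was lower over cluster 4 (280 and 255 CPM in cluster 3, against 301 and 288 CPM in cluster 4), beside the backgrounds of 16.1%, 20.7% and 27.6% higher and, over cluster 4, 23.8% lower. Of 4 regulators at that level 0 were higher over any of the 3 clusters, and 1, Rfxap, named after its values were seen, was lower over cluster 1. Below that level, Nlrc5, the class I transactivator, had 11.9 and 13.5 CPM in cluster 3 and 6.24 and 6.88 CPM in cluster 0. Irf1, an interferon-induced factor, had 28.3 and 14.9 CPM in cluster 3, against 12.3 and 8.51 CPM in cluster 0. In myeloid cluster 2 they stood higher still, at 26.8 and 19.5 CPM for Nlrc5 and 96.3 and 70.4 CPM for Irf1.

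Class I RNA could be compared between conditions in the 4 clusters with at least 20 cells in every brain: 9, 7, 11 and 6. Krt8 was higher in the metastasis brains in each of them. The comparisons are therefore of deposited clusters and not of pure brain cell types. UMIs were summed per brain, and metastasis was set over naive with edgeR's quasi-likelihood test and Benjamini-Hochberg adjustment over all genes tested in that cluster. No member was called lower with metastases by this test in any of them. In cluster 6, mean CPM was still lower in metastasis brains for H2-Q4 (54.5 against 97.6), H2-T23, Tap2 and Tapbp, and higher for the others. Some members too low to be tested also had lower means, such as Tap1 in cluster 11 (16.6 against 28.2 CPM). At most 2 naive and 2 metastasis brains stood behind any value.

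In choroid plexus-like cluster 9, 4 of the 6 members tested were higher in metastasis brains (H2-D1, B2m, H2-K1 and H2-T23), where 3.83% of the 3473 genes tested were. H2-D1 had 240 and 650 CPM in metastasis brains, against 61.7 and 104 CPM in naive brains, a log2 fold change of 2.31 (SE 0.35, adjusted p = 5.3e-05). B2m had 592 and 1288 CPM in metastasis brains, against 226 and 365 CPM in naive brains, a log2 fold change of 1.56 (SE 0.26, adjusted p = 2.2e-04). The conditions did not overlap for these genes, and metastasis brain 2 was the higher of its pair. H2-K1 had 86.6 and 316 CPM in metastasis brains, against 56.6 and 24.7 CPM in naive brains, a log2 fold change of 2.18 (SE 0.47, adjusted p = 0.00312). H2-T23 had 44.1 and 180 CPM in metastasis brains, against 10.3 and 24.7 CPM in naive brains, a log2 fold change of 2.49 (SE 0.60, adjusted p = 0.0106). For all 4 of these genes the distance in CPM between the metastasis brains was larger than that between metastasis brain 1 and either naive brain. Tapbp (55.6 and 82.6 CPM against 36.0 and 29.6 CPM) and H2-T22 (36.0 and 36.0 CPM against 10.3 and 29.6 CPM) did not pass the test. H2-Q4, H2-Q7, Tap1 and Tap2 were too low to be tested, and of the 6 tested only H2-D1 and B2m would have passed the filter on low counts in both naive brains.

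The calls in cluster 9 rested on few brains and cells. DESeq2 kept that of H2-K1 alone (adjusted p = 0.0211, against 0.0525 for H2-D1 and 0.141 for B2m, with none given for H2-T23). Leaving out the 1 cell called a doublet ended the calls of H2-K1 (2.19, adjusted p = 0.0936) and H2-T23 (2.50, adjusted p = 0.128). Without metastasis brain 1 no member passed (H2-D1 2.86, adjusted p = 0.0637), and without metastasis brain 2 the log2 fold changes were 1.49 for H2-D1 (adjusted p = 2.6e-04), 0.96 for B2m (0.00427) and 1.06 for H2-K1, which lost its call (0.234). In thinned cells H2-D1 was seen in 20.6% and 27.8% of 97 and 72 cells of the metastasis brains, against 5% and 8.33% of 40 and 36 cells of the naive brains. The difference of the means was 17.5 percentage points (24.2% ± 5.06 against 6.67% ± 2.36, SD, n = 2 each). The other called members were less clear by this share. B2m had 43.4% ± 7.40 against 34.2% ± 1.18, H2-K1 15.4% ± 11.6 against 2.5% ± 3.54, and H2-T23 7.46% ± 9.09 against 2.78% ± 3.93. Median depth was alike, at 5371 and 5337.5 UMIs in metastasis brains and 4574.5 and 5575.5 UMIs in naive brains. Krt8 had 119 and 150 CPM in metastasis brains, against 56.6 and 69.1 CPM in naive brains, while the 10 carcinoma markers, 2 of them at 0, summed to 338 and 441 CPM against 319 and 321 CPM. Much of that sum was Krt18, with 196 and 239 CPM against 226 and 227 CPM. Krt18 stood high by the marker rule in clusters 7 and 9, but had at most 3.67 CPM in clusters 0, 1, 3 and 4 of the metastasis brains. The sum and a filter on any carcinoma marker therefore do not single out tumour RNA here. In cells without a Krt8 UMI (58 and 38 cells against 30 and 25, a choice made after seeing the data), H2-K1 (1.93, adjusted p = 0.0107) and B2m (1.24, adjusted p = 3.6e-07) kept their calls and H2-D1 did not (1.28, adjusted p = 0.0536). In the 20 and 16 against 13 and 8 cells with no UMI of any carcinoma marker, B2m was the only member high enough to be tested (0.38, adjusted p = 0.889). Macrophage markers, 3 of 8 of them at 0, summed to 141 and 72.0 CPM against 51.4 and 114 CPM, and monocyte markers to 99.7 and 97.5 CPM against 82.3 and 44.4 CPM; their part in the result was not tested.

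In the larger choroid plexus-like cluster 7, 2 of 7 members tested were higher in metastasis brains, where 14.2% of 5963 genes were higher and 16.9% lower. Calls were thus common over all genes there, and whether the members exceeded that share was not tested. The tested members had a median log2 fold change of 0.99, beside 0.11 over all genes tested. H2-D1 had 785 and 1304 CPM in metastasis brains, against 367 and 351 CPM in naive brains, a log2 fold change of 1.28 (SE 0.26, adjusted p = 0.00642). H2-K1 had 134 and 208 CPM in metastasis brains, against 73.4 and 59.8 CPM in naive brains, a log2 fold change of 1.07 (SE 0.33, adjusted p = 0.0329). B2m, at 944 and 1464 CPM against 706 and 381 CPM, missed the threshold with 0.85 (adjusted p = 0.0515), as did H2-T23, whose naive levels lay under the filter on low counts, with 1.47 (adjusted p = 0.0531) and H2-T22 with 0.99 (adjusted p = 0.0915). Tap2 (0.61) and Tapbp (0.46) did not pass either. The same cluster differed between conditions in what it contained. Ttr, the transthyretin transcript that marks choroid plexus, had 122022 and 73098 CPM in metastasis brains, against 269908 and 251048 CPM in naive brains. Krt8 had 323 and 532 CPM against 150 and 59.8 CPM, the median mitochondrial share was 4.79% and 1.74% against 8.94% and 12.9%, and 18 and 15 cells were called doublets against 1 and 2. In cells with at most 10% mitochondrial UMIs H2-D1 (0.44, adjusted p = 0.258) and H2-K1 (0.72, adjusted p = 0.301) lost their calls. H2-K1 also lost its call without metastasis brain 2 (0.80, adjusted p = 0.117) and without naive brain 2 (0.95, adjusted p = 0.0745).

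In mural-like cluster 11, 1 of 5 members tested was higher in metastasis brains, against 3.82% of 2620 genes. H2-D1 had 979 and 1279 CPM in metastasis brains, against 628 and 500 CPM in naive brains, a log2 fold change of 0.86 (SE 0.27, adjusted p = 0.0329). B2m, at 1311 and 1318 CPM against 771 and 807 CPM, did not pass (0.65, adjusted p = 0.0853), although its brains did not overlap. Mural markers, 1 of 8 of them at 0, summed to 1450 and 1069 CPM in metastasis brains, against 7515 and 13956 CPM in naive brains. Krt8 had 445 and 664 CPM against 143 and 38.4 CPM, and median depth was 9974 and 10370 UMIs against 814 and 871 UMIs. In cluster 0 of the metastasis brains Krt8 had 432 and 656 CPM. Whether the metastasis cells of cluster 11 are mural cells was not tested. Cells without a Krt8 UMI numbered 6 and 6 in metastasis brains and 41 and 26 in naive brains, and 300 genes could be tested. There H2-D1 lost its call (0.89, adjusted p = 0.4996, edgeR's test). So few metastasis cells cannot show whether the difference remained. The call was also lost without metastasis brain 1 (1.06), metastasis brain 2 (0.69) or naive brain 2 (0.77).

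In endothelial-like cluster 6 all 10 members were tested and none passed, where 2.34% of 4539 genes were higher. H2-D1 averaged 1604 ± 128 CPM in metastasis brains and 1379 ± 125 CPM in naive brains (SD, n = 2 each), a log2 fold change of 0.22 (SE 0.19). B2m averaged 2093 ± 172 CPM in metastasis brains and 1998 ± 255 CPM in naive brains (0.07, SE 0.18), and H2-K1 455 ± 92.4 CPM and 404 ± 70.5 CPM. DESeq2 also called 0 of the 10. H2-Q7, the Qa-2 gene, was the only 1 with an unadjusted p under 0.05 in edgeR's test: it had 49.9 and 82.5 CPM in metastasis brains (22 and 35 UMIs) against 26.3 and 9.09 CPM in naive brains (4 UMIs and 1 UMI), a log2 fold change of 1.78 (SE 0.61, adjusted p = 0.0978). It entered the test through the metastasis brains, since its naive levels lay under the filter on low counts. Endothelial-like cells of naive brains had a higher CPM of H2-D1 and B2m than choroid plexus-like cells of either condition in cluster 9. The endothelial markers summed to 4527 and 3772 CPM in metastasis brains, against 10847 and 8289 CPM in naive brains. Krt8 had 270 and 330 CPM against 125 and 127 CPM. Also high in cluster 6 were 3 of 8 mural and 3 of 4 ependymal markers, and the ependymal markers summed to 218 and 608 CPM against 85.6 and 54.5 CPM. Cluster 6 was thus not endothelium alone, and the part of other cells in the result was not tested.

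**Figure D4:**
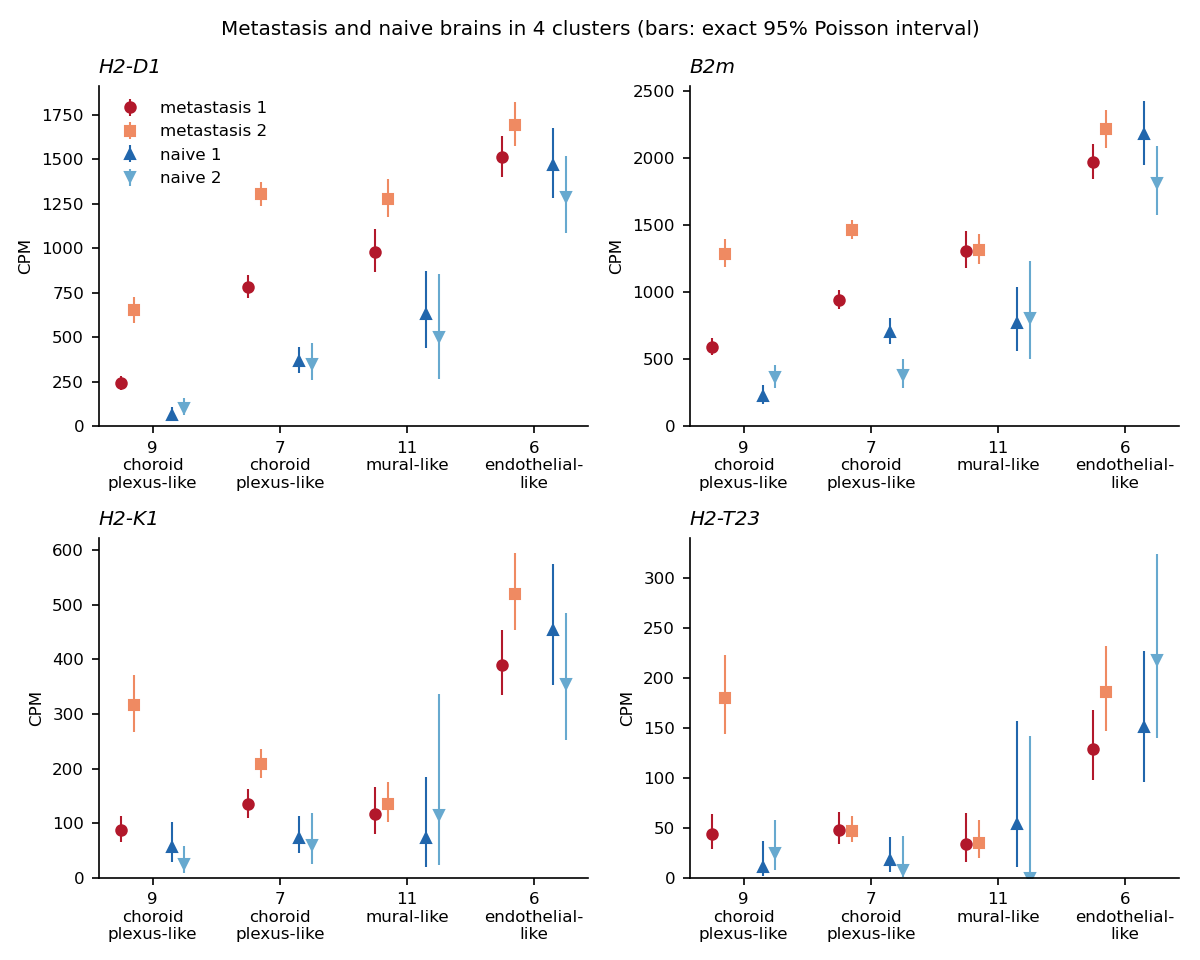
CPM of H2-D1, B2m, H2-K1 and H2-T23 (panels) in clusters 9, 7, 11 and 6, with the 2 metastasis brains (red, orange) left of the 2 naive brains (blue) in each cluster. Bars are exact 95% Poisson intervals of the summed UMIs; in cluster 9 the metastasis points lie above the naive points in all 4 panels, and in cluster 6 H2-K1 and B2m overlap.

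Whether the condition difference itself varied between these clusters was tested in a joint edgeR quasi-likelihood fit of 6247 genes with the brain as a block. It varied for 4 of the 10 members, H2-D1 (adjusted p = 4.5e-04), H2-T23 (0.00296), H2-K1 (0.00820) and B2m (0.0128), against 9.01% of all genes. The difference was larger in cluster 9 than in cluster 6 for the same 4 genes, against 0.944% of all genes: by 1.99 on the log2 scale for H2-D1 (SE 0.40, adjusted p = 6.6e-04), 1.92 for H2-K1 (SE 0.46, adjusted p = 0.00625), 2.66 for H2-T23 (SE 0.61, adjusted p = 0.00379) and 1.41 for B2m (SE 0.35, adjusted p = 0.00917). No member passed in the other pairs, where all genes gave 3.55% for cluster 7 minus 6, 1.28% for 11 minus 6, 5.25% for 9 minus 7, 1.46% for 11 minus 7 and 1.81% for 11 minus 9. The choroid plexus-like clusters 9 and 7 were thus not shown to differ in their class I change (H2-D1 1.01, SE 0.42, adjusted p = 0.162). Without metastasis brain 2, or without naive brain 1, no member passed in cluster 9 minus cluster 6.

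With at least 10 cells in every brain as the minimum, clusters 1, 8, 10 and 12 could be tested too. In cluster 1, H2-D1 had 1372 and 1615 CPM in metastasis brains, against 1181 and 684 CPM in the 13 and 11 naive-labelled cells (log2 fold change 0.87, SE 0.21, adjusted p = 0.0479), 1 of 8 members tested beside 0.0310% of all genes. The call was lost with RLE size factors (0.71, adjusted p = 0.258), library size alone (0.58, 0.347) or DESeq2 (0.77, 0.770), without doublets (0.82, 0.148), at 1000 UMIs or more (0.92, 0.0551), and without metastasis brain 1 (0.73, 0.564), metastasis brain 2 (0.50, 0.9999) or naive brain 2 (0.55, 0.725). No member was called higher in cluster 8 (0.356% of genes were), cluster 10 (0.375%) or cluster 12 (1.82%). Cluster 10 held many called doublets: 31 of 54 and 46 of 112 cells in metastasis brains, against 5 of 27 and 3 of 13 in naive brains. In its cells with at most 10% mitochondrial UMIs, 1 of 7 members tested was called lower, beside 1.59% of all genes. In cluster 0, H2-D1 had 1367 and 1543 CPM in the metastasis brains and 1329 CPM in the 37 cells labelled naive brain 1. Naive mice had no metastases, and whether the hashing labels of such cells are right was not tested, so values in naive-labelled cells of clusters 0, 1, 3 and 4 are not a naive level of tumour cells.

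Of the other genes of the pathway, some passed in the choroid plexus-like clusters, and 0 passed in clusters 6 and 11. In cluster 9, 1 of 3 immunoproteasome genes tested was higher (3.83% of all genes were): Psmb8 had 32 and 39 UMIs in metastasis brains (52.3 and 82.6 CPM), against 1 and 0 UMIs in naive brains (adjusted p = 5.2e-04, edgeR's quasi-likelihood test). It passed the filter on low counts through the metastasis brains alone. In cluster 7, where 14.2% of all genes were higher and 16.9% lower, 2 of 4 were higher, Psmb8 with 121 and 186 CPM in metastasis brains against 49.0 and 52.3 CPM in naive brains (log2 fold change 1.36, SE 0.35, adjusted p = 0.0157) and Psme2 (1.00, adjusted p = 0.0332). The constitutive subunit Psmb6 (0.90, adjusted p = 0.0172), the NF-kappa B subunit Rela (1.66, adjusted p = 0.0258) and Raet1e, a ligand of an activating NK receptor (1.84, adjusted p = 0.0240), were also higher in cluster 7, but Rela (54.5 and 55.1 CPM in metastasis brains against 14.0 and 14.9 CPM in naive brains) and Raet1e (50.5 and 52.5 CPM against 14.0 and 7.47 CPM) entered the test through the metastasis brains alone. The endoplasmic reticulum chaperones Canx (-0.96, adjusted p = 0.00899) and Hspa5 (-1.06, adjusted p = 0.00938), 2 of 5 loading and trimming genes tested, were lower. Nlrc5 and Irf1 were too low to be tested in clusters 9, 7 and 11; in cluster 6 Irf1 (52.2 and 30.6 CPM in metastasis brains, against 52.7 and 54.5 CPM in naive brains) did not pass.

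Over the 12 clusters with at least 20 cells in both metastasis brains, the genes whose mean log2 level ran most like the mean of the 10 members were Sp100, a nuclear body protein that interferon induces (Pearson r = 0.978), Arl6ip5 (0.961), Ifnar1, a type I interferon receptor chain (0.959), Nfkbia, the NF-kappa B inhibitor (0.954), and Tmem243 (0.954), among 6133 genes. The clusters share 1 library and differ in depth, so these are descriptions. Among the members themselves, H2-K1 followed the mean of the other 9 most closely (r = 0.965) and B2m next (0.928), whereas H2-D1 (0.685) and Tap2 (0.606) followed it least. From cell to cell at 5000 UMIs, H2-D1 and B2m had r between 0.25 and 0.43 in clusters 0, 1, 3 and 4 of the metastasis brains. Each gene's own counting noise and cell state are both in the value.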

How the data were processed

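UMI counts per gene and cell were deposited by the authors as a full table, with a per-cell table of clusters and hashing calls. Cell Ranger 3.0.2, Seurat 3.0.1 and build mm10 are named per the submitters' processing notes. Further upstream steps were not given. The deposited mitochondrial percent per cell reached 24.9 and the deposited cells held at least 500 UMIs. Each cell's brain was read from the deposited hashing call. The 10 members and all lists were chosen with earlier results of these data known. Counts were summed per cluster and brain. Clusters with at least 20 cells in each of the 4 brains were fitted with edgeR 4.0.16 (quasi-likelihood, TMM scaling, filterByExpr, adjusted p under 0.05), and a joint fit with the brain as a block tested differences between clusters. Alternatives were DESeq2 1.42.0, other scalings, filters and cell sets, and each brain left out. Scrublet, at an expected rate of 8% (threshold 0.407), called 220 cells (1.77%) doublets; they were kept in the main results. Cells were thinned without replacement, with shallower cells left out, and intervals are exact at 95%. All members were named, as were pathway genes that passed (at most 3 per list and cluster), Nlrc5 and Irf1 always (1 further regulator is not reported here), and the 5 most alike genes; Psmb8 and Psme2 levels in clusters 0 and 3 and the Krt8 and Ttr levels were chosen after their values were seen. The edgeR fit was also run on simulated counts.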

Additional observations from a re-analysis of the deposited data

Results flagged for a closer look

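In 4 of the 10 members the metastasis-over-naive difference was larger in choroid plexus-like cluster 9 than in endothelial-like cluster 6, by the interaction term of edgeR's joint fit. The distance on the log2 scale was 2.66 for H2-T23, 1.99 for H2-D1, 1.92 for H2-K1 and 1.41 for B2m. For H2-D1 the metastasis brains were at 240 and 650 CPM and the naive brains at 61.7 and 104 CPM in cluster 9, whereas in cluster 6 the means were 1604 CPM in metastasis brains and 1379 CPM in naive brains. Both clusters came from the same 4 brains of 1 pooled run. Without a block for the brain, H2-D1 was the only member that passed (2.10, adjusted p = 0.0442).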

How the results depend on the processing

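Of 85 alternatives run on the 7 called pairs of member and cluster, 57 kept the call, 28 lost it and 0 reversed; 14 of 237 alternatives on uncalled pairs brought a call. Against 7 calls in all, library size alone and no low-count filter gave 11 each, DESeq2 gave 4, cells with no Krt8 UMI (added after seeing the data) gave 4, at most 10% mitochondrial UMIs gave 3, no carcinoma marker UMI gave 0, and leaving out a brain gave 3 to 7. In cluster 7, with 2 calls, library size alone and no filter gave 5 each, at least 1000 UMIs gave 4, at most 10% mitochondrial UMIs and no carcinoma marker UMI gave 0 each, and leaving out a brain gave 1 to 3. In cluster 9, with 4 calls, DESeq2 gave 1, doublet removal, the mitochondrial limit and no Krt8 UMI gave 2 each, no carcinoma marker UMI gave 0 with 1 member testable, and leaving out a brain gave 0 to 4. In clusters 7 and 9 the carcinoma marker filter also removed cells with Krt18, which stood high there. In cluster 11, with 1 call, library size alone and no filter gave 2 each, at least 1000 UMIs, no carcinoma marker UMI and no Krt8 UMI gave 0 each, and leaving out a brain gave 0 to 1. Library size alone moved the median log2 fold change of all genes to 0.373, against 0.113, in cluster 7 and to 0.112, against -0.00, in cluster 9. For differences between clusters, and for cluster 9 minus cluster 6, both with 4 calls, no block for the brain gave 1 each, and leaving out a brain gave 0 to 4. In cluster 6, where no member passed under any alternative run, some signs turned with a brain left out: H2-T23 ranged over -0.47 to 0.085, H2-K1 over -0.0061 to 0.39, B2m over -0.030 to 0.20, Tap2 over -0.78 to 0.40 and Tapbp over -0.64 to 0.068. H2-T23 was also turned with no carcinoma marker UMI (0.40) and with no Krt8 UMI (0.42). Within a single brain, where each cluster has 1 value and overlap across brains does not count, 6 members were higher in cluster 0 than in cluster 4 (3 with no overlap across brains), and 7 to 8 in cluster 1 than in cluster 0 (3 with no overlap). The cluster 9 difference in the share of cells with H2-D1 was 11.5 points at 500 UMIs and 24.6 without thinning, and without thinning the cluster 3 minus cluster 0 difference was -0.053 points for H2-D1 and -0.12 for B2m. With CPM averaged over single cells, H2-T23 was no longer lower in cluster 3 than in clusters 0 and 1. Of the 5 most alike genes, 1 was also among the top 5 by Spearman correlation. The causes were not tested. Some alternatives also leave a smaller number of cells or brains, and the part of that in lost calls was not tested either. No paired analysis was possible because the hashing antibodies give the metastasis and naive brains no shared numbers. With 2 brains per condition and 12 and 21 naive H2-D1 UMIs in cluster 9, small differences could not be seen.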
